A study of Mus musculus with 20 samples.

Results

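Basement membrane and extracellular matrix genes were followed after total body irradiation in VE-cadherin+ cells of mouse bone marrow, which the labels call endothelial. The list was chosen with earlier results of these data known. It held 39 genes, 15 of the basement membrane and 24 of the interstitial matrix, named by their function. Of these, 36 were among the 18193 genes measured, all 15 basement membrane genes and 21 interstitial ones. Fbn1, Efemp2 and Loxl2 had no probe set carrying their name alone in the table used here and have no value. RNA came from cells labelled VE-cadherin+ and taken from the marrow of C57/Bl6 mice aged 8 to 10 weeks. There were 4 groups of 5 Affymetrix arrays. The first was non-irradiated. The other 3 received 5 Gy and were taken 6 hours, 24 hours or 14 days later. The labels name no genetic change in any group. They describe replicate arrays as biological without saying whether an array is 1 animal or a pool, so p-values measure only the spread between these samples.

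The basement membrane is the thin sheet on which endothelial cells rest. It is built from a network of type IV collagen and a network of laminin trimers, tied together by nidogens and by heparan sulphate proteoglycans such as perlecan and agrin. Around it lies the interstitial matrix of fibrillar collagens, collagen VI microfibrils, elastic fibres, fibronectin and small proteoglycans, much of which is made by stromal cells and pericytes. In marrow, sinusoidal vessels have a thin, interrupted basement membrane, and its proteins anchor both the vessel wall and the blood-forming cells beside it.

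Signals below are the authors' scaled probe set intensities, given as means ± SD (n = 5 arrays per group). A log2 change is the fitted difference of log2(signal + 1) between groups with its standard error. A gene is said to rise or fall where limma's Benjamini-Hochberg adjusted p over all 18193 genes was under 0.05. Levels of different genes are not compared, since each probe set has its own brightness.

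The deposited scaling fixed each array's trimmed mean, while array medians fell, from a signal of 177 without irradiation to 149 at 6 hours, 135 at 24 hours and 94.5 at day 14. Centring arrays on their medians instead raised every change by 0.25 at 6 hours, 0.38 at 24 hours and 0.90 at day 14 on the log2 scale. The median change of all genes as deposited was -0.02, -0.07 and -0.18. The hybridization controls averaged 12.40 to 12.67 on the log2 scale without irradiation and 12.41 to 12.82 at 6 hours, but 11.68 to 12.16 at 24 hours and 11.74 to 12.17 at day 14, so that the first 2 groups and the last 2 did not overlap. This split runs along every comparison of 24 hours or day 14 with 6 hours or with no irradiation. Its part in them was not tested. None of the 12 endothelial markers was at background on all arrays of a group. Cdh5, which encodes VE-cadherin, read 3186 ± 494 in the non-irradiated group. Markers of other cells were present too, among them those of leukocytes, stromal cells and red cell precursors. In RNA from a sorted population, fewer cells of a type and less RNA per cell cannot be told apart.

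Some of the matrix genes are neighbours in the genome. Col4a1 and Col4a2 start head to head on mouse chromosome 8 and are read in opposite directions. Col3a1 and Col5a2 on chromosome 1, and Dcn and Lum and also Col6a2 and Col6a1 on chromosome 10, are pairs with 0 protein-coding genes between their members. The 22 bases shown for the collagen IV pair run from the start of Col4a2 to the start of Col4a1. They lie inside both genes, not before their starts, and are shown because both genes rose at 6 and at 24 hours. The other stretches are the 250 bases before the start of a gene from each time course described below. Col18a1 rose at both early times and Mmrn1 at 6 hours alone, Col3a1 rose at 24 hours and not at 6 hours, and Col6a1 rose at both with a further rise between them. Sequences are from RefSeq on build GRCm38.p6, 5′ to 3′ along the gene's strand (the plus strand for the shared stretch). Capitals mark a match, on either strand, to GGGCGG (the GC box), CCAAT (the CCAAT box), TATAAA (the TATA box) or TGANTCA (the AP-1 site).
Col4a1 and Col4a2, chr8:11312805-11312826: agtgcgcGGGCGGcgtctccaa
Col18a1, chr10:77166531-77166780: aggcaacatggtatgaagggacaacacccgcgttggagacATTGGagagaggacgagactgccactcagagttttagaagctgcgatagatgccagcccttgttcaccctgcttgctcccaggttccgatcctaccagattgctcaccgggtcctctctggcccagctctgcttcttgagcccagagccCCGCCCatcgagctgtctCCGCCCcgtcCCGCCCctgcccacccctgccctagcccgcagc
Mmrn1, chr6:60944067-60944316: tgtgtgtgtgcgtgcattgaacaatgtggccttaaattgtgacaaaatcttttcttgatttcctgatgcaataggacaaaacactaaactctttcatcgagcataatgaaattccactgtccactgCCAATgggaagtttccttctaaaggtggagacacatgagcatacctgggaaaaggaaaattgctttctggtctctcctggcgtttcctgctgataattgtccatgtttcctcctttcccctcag
Col3a1, chr1:45311288-45311537: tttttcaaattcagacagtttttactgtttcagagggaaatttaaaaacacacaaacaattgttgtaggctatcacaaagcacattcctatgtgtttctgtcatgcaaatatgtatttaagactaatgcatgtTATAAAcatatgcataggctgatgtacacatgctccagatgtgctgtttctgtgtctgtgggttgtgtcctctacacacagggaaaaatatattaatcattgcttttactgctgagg
Col6a1, chr10:76726045-76726294: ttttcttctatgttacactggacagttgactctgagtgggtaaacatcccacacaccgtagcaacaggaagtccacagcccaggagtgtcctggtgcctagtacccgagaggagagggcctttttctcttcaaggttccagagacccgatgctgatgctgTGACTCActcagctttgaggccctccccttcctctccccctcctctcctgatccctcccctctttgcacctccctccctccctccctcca

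The Col18a1 stretch held 3 GC boxes and 1 CCAAT box on the opposite strand, and that of Mmrn1 held 1 CCAAT box. In Col3a1 the match was a TATA box that begins 117 bases before the start of the gene, and in Col6a1 an AP-1 site that begins 90 bases before it. The matches do not overlap each other in the printed stretches. A promoter window was listed for 28 of the 39 genes, in 37 windows. A GC box was found in 24 of these windows (64.9%), against 32.7% of all 32851 windows of the same length in the mouse table. A CCAAT box was found in 24.3% of the members' windows and 33.8% of all, a TATA box in 10.8% and 12.4%, and an AP-1 site in 5.41% and 6.75%. These matches describe letters and were not linked to the arrays.

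Most measured genes of this list rose within a day of irradiation, and the counts hold for the list alone. At 6 hours 26 of the 36 measured genes rose and 1 fell, while 12.9% of all genes tested were called higher and 14.5% lower. At 24 hours 30 rose and 0 fell, against 15.7% and 13.8% of all genes. At day 14 8 of the genes were higher and 7 lower, against 9.47% and 13.0%. At least 2-fold rises were seen in 13 of the genes at 6 hours and 19 at 24 hours. The 3 comparisons share the non-irradiated arrays, so their counts are not independent of each other.

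Of the 15 basement membrane genes 13 rose at 6 hours and 11 at 24 hours, with median log2 changes of 1.03 and 0.98. Of the 21 interstitial genes 13 rose and 1 fell at 6 hours and 19 rose at 24 hours, with medians of 0.57 and 1.26. The direct contrast of 24 against 6 hours, described further on, called 6 basement membrane genes higher and 2 lower, and 13 interstitial genes higher and 2 lower. The difference between the classes was not itself tested. With the mean of all of a gene's probe sets, dim ones included, 10 basement membrane and 9 interstitial genes rose at 6 hours. Among the calls lost in this way were Agrn (0.17), Dcn (0.42), Vcan (0.61) and Lox (0.29), and at 24 hours Dcn (0.41).

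**Figure D1:**
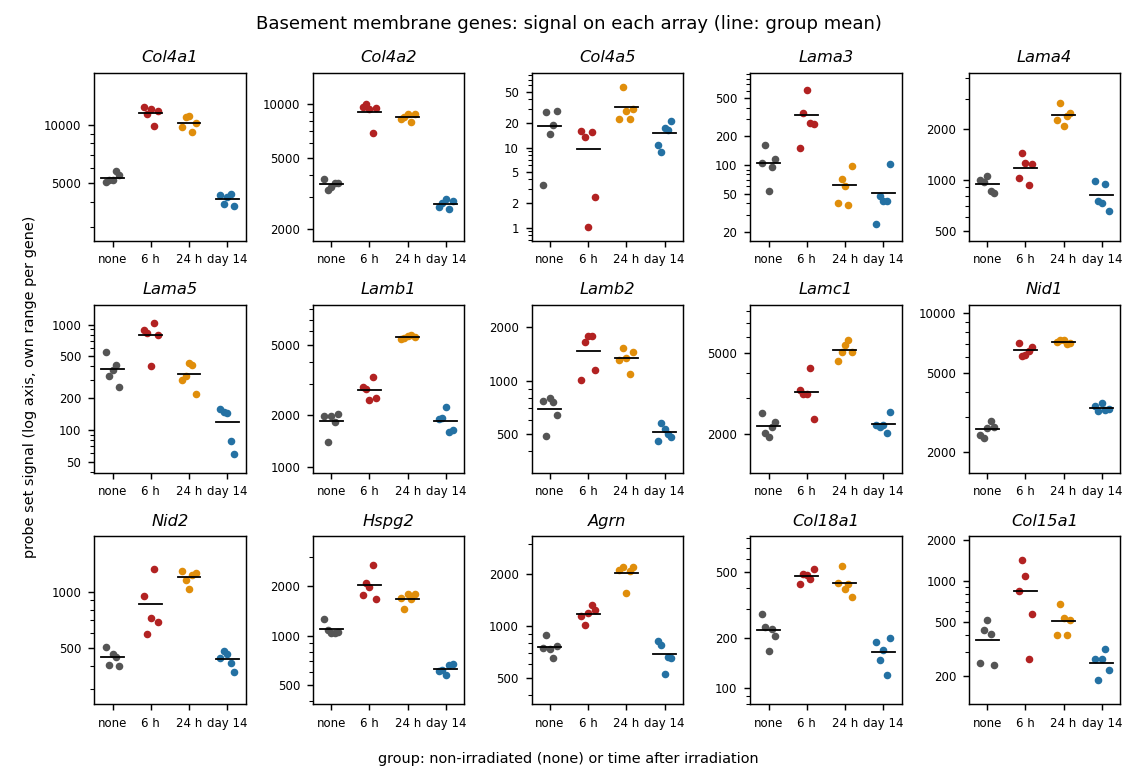
Signal of each of the 15 basement membrane genes on each of the 20 arrays, on a log axis with its own range for each gene, by group (5 points per group, line at the group mean). For Col4a1, Col4a2, Nid1 and Hspg2 the arrays of 6 and 24 hours lie above all non-irradiated arrays, while those of Lama5 at 24 hours overlap the non-irradiated ones again.

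Type IV collagen chains α1 and α2, which twist together into the main collagen of vessel basement membranes, rose at both early times. Col4a1 gave signals of 5047, 5187, 5214, 5785 and 5487 in the non-irradiated arrays, 12300.2, 11304, 11966, 9791 and 11756 at 6 hours, 9729.9, 10934, 11079, 9168 and 10216 at 24 hours and 4350.1, 3932, 4230.5, 4389 and 3801 at day 14. Every array of the first day lay above every non-irradiated array, and every day 14 array lay below. The log2 change of Col4a1 was 1.09 ± 0.076 at 6 hours (adjusted p = 2.44e-11) and 0.93 ± 0.076 at 24 hours (adjusted p = 3.41e-10). Col4a2 followed it, with 3777, 3278, 3439.6, 3620.3 and 3622 without irradiation, 9559.7, 9933, 9333, 6903 and 9409.8 at 6 hours, 8191, 8459, 8811, 7895 and 8716 at 24 hours and 2649, 2781, 2932, 2574 and 2854 at day 14. Its arrays were ordered by group in the same way, with the fourth replicate at 6 hours below the others of its group. Col4a2 rose 2.53-fold at 6 hours and 2.37-fold at 24 hours, where Col4a1 rose 2.13-fold and 1.91-fold. For neither gene was a difference called between 24 and 6 hours (adjusted p = 0.135 for Col4a1 and 0.489 for Col4a2). The other probe set of Col4a1 read 1.61 and 1.37 at these times. Col4a5, a chain of more specialised basement membranes such as that of the kidney filter, was at or under array background on 4 non-irradiated arrays, all 5 arrays at 6 hours, 1 at 24 hours and 4 at day 14, so no fold is given for it.

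Laminins are trimers of an α, a β and a γ chain, and endothelial laminins carry the α4 or the α5 chain. The chains did not move as a block. Lama4, the α4 chain, had 991, 971, 1051, 854 and 831 without irradiation, 1023, 1442, 1249, 936 and 1237 at 6 hours, 2266, 2855, 2065, 2378 and 2477 at 24 hours and 989, 746, 731, 941 and 653 at day 14. Its 6-hour arrays overlapped the non-irradiated ones, while all 5 arrays at 24 hours lay above both groups. The change was 0.31 ± 0.15 at 6 hours (adjusted p = 0.126, or called at 0.56 with arrays centred on their medians) and 1.35 ± 0.15 at 24 hours (adjusted p = 6.61e-08). Lama5, the α5 chain, had 550.3, 326, 372, 409.8 and 253 without irradiation, 889, 837, 403, 1030.2 and 792 at 6 hours, 296, 327, 434, 410.5 and 218 at 24 hours and 158, 148, 145, 79.0 and 59.1 at day 14. All 6-hour arrays but the third replicate stood above every other array of the gene, the 24-hour arrays were back among the non-irradiated ones, and the day 14 arrays were all lower. Lama5 rose by 1.03 ± 0.31 at 6 hours (adjusted p = 0.0136) and read -0.18 ± 0.31 at 24 hours (adjusted p = 0.728). From 6 to 24 hours Lama4 rose by 1.04 ± 0.15 and Lama5 fell by 1.20 on the log2 scale. The early rise of Lama5, which was not called with array weights (1.06), rests on its brightest probe set, since the next one read 0.26 at 6 hours, 0.05 at 24 hours and -1.61 at day 14.

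The β1 and γ1 chains, partners in most endothelial laminins, moved together. Lamb1 had 1965, 1397, 1954, 1804 and 2026 in the non-irradiated arrays, 2887, 2806, 2409, 3299.9 and 2499 at 6 hours, 5393, 5464, 5618, 5683 and 5592 at 24 hours and 1894, 1919.6, 2197, 1584 and 1639.7 at day 14. The groups of 6 and 24 hours were each higher than the group before them with no overlap, and day 14 overlapped the non-irradiated arrays. Lamb1 rose 1.52-fold at 6 hours (adjusted p = 0.000209) and 3.06-fold at 24 hours (adjusted p = 3.48e-11). A dimmer probe set of Lamb1, above background on all 20 arrays, read -0.07 at 6 hours and 1.53 at 24 hours, and with the mean of all its probe sets the 6-hour change (0.29) was not called. Lamc1 spanned 1936 to 2540.4 without irradiation, 2368 to 4204 at 6 hours, 4565 to 5767 at 24 hours and 2022 to 2558 at day 14, and rose 1.45-fold and 2.37-fold at the early times (adjusted p = 0.00111 and 8.12e-09). Its lowest 6-hour array fell within the non-irradiated range. Lamb2, the β2 chain, rose from 690.4 ± 127 to 1476 ± 372 at 6 hours and stood at 1349 ± 168 at 24 hours (1.08 ± 0.18 and 0.98 ± 0.18). Between 6 and 24 hours Lamb2 read -0.10 ± 0.18 (adjusted p = 0.74), where Lamb1 rose by 1.01 ± 0.12 (adjusted p = 3.17e-07). Lama3, the α3 chain of epithelial laminin, was dim and uneven, with 53.2 to 162 in the non-irradiated arrays, 149.7 to 615 at 6 hours, 38.5 to 98.3 at 24 hours and 24.4 to 102 at day 14, where 1 array was at background. It rose by 1.56 ± 0.43 at 6 hours (adjusted p = 0.00721), but its other probe set read 0.25.

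The nidogens, which bridge laminin and collagen IV, rose at both times. Nid1 read 2442, 2366, 2656, 2866 and 2658 in the non-irradiated arrays, 7051, 6060.5, 6104, 6429.9 and 6696 at 6 hours, 7161, 7321, 7297, 7004 and 7036 at 24 hours and 3398, 3215, 3533, 3241 and 3271 at day 14. Values within a group lay close together, and all irradiated arrays lay above all non-irradiated ones. The log2 change was 1.32 ± 0.075 at 6 hours (adjusted p = 6.08e-13), 1.47 ± 0.075 at 24 hours (adjusted p = 8.22e-14) and 0.36 ± 0.075 at day 14 (adjusted p = 0.00107). The rise at day 14 rests on 1 probe set, since the other bright one read 1.07 and 1.28 at the early times and 0.01 at day 14 (adjusted p = 0.939). Nid2 spanned 399 to 505 without irradiation, 589 to 1319 at 6 hours and 1035 to 1291 at 24 hours, and its day 14 arrays (372 to 482) overlapped the non-irradiated ones. Its changes were 0.89 ± 0.19 and 1.43 ± 0.19 (adjusted p = 0.000587 and 9.95e-07).

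Both heparan sulphate proteoglycans rose, with their larger change at different times. Hspg2, which encodes perlecan, read 1259, 1089.9, 1042, 1033 and 1058 in the non-irradiated arrays, 1757, 2082, 1979.6, 2666 and 1667 at 6 hours, 1686, 1443, 1789, 1665 and 1792 at 24 hours and 611, 618, 576, 664 and 678 at day 14. The early groups lay above and day 14 below all non-irradiated arrays. Perlecan rose 1.83-fold at 6 hours (adjusted p = 1.14e-05) and 1.53-fold at 24 hours (adjusted p = 0.000748), and the second value was not called when probe sets open to cross-hybridization were left out (0.54 on the log2 scale). Agrn, which encodes agrin, read 744, 888, 737, 649 and 771 without irradiation, 1148, 1009.9, 1188, 1328 and 1243 at 6 hours, 2134, 2211, 1561, 2085 and 2218 at 24 hours and 821, 782, 526, 658 and 655 at day 14. Its 24-hour arrays were all above its 6-hour arrays, which were all above the non-irradiated ones. Agrin rose 1.56-fold and then 2.68-fold over the non-irradiated group (adjusted p = 0.00153 and 2.73e-08), and the step from 6 to 24 hours was 0.78 ± 0.15 (adjusted p = 0.000294).

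Collagens XVIII and XV are proteoglycan collagens of vascular basement membranes whose end fragments, endostatin and restin, are known to act on vessels. Col18a1 read 281, 233, 168, 226 and 206 without irradiation, 424, 487, 481, 455 and 519.8 at 6 hours, 429, 545, 392, 425 and 356 at 24 hours and 190.5, 149, 169.8, 119.9 and 199 at day 14. The arrays of both early times lay above the non-irradiated ones, and the day 14 arrays overlapped them. It rose by 1.10 ± 0.22 at 6 hours and 0.95 ± 0.22 at 24 hours (adjusted p = 0.000344 and 0.00145). Col15a1 was scattered at 6 hours, with 841, 1406, 1082, 267 and 566 against 250.4, 435, 515, 409 and 239 in the non-irradiated arrays. The fourth replicate of 6 hours lay within the non-irradiated range. Its change of 1.03 ± 0.33 (adjusted p = 0.0203) lost the call in a fit of the 2 groups alone, and without either of the non-irradiated replicates 1 and 5 or the 6-hour replicates 2 and 3 (0.78 to 0.90). At 24 hours it read 0.48 ± 0.33 (adjusted p = 0.302).

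**Figure D2:**
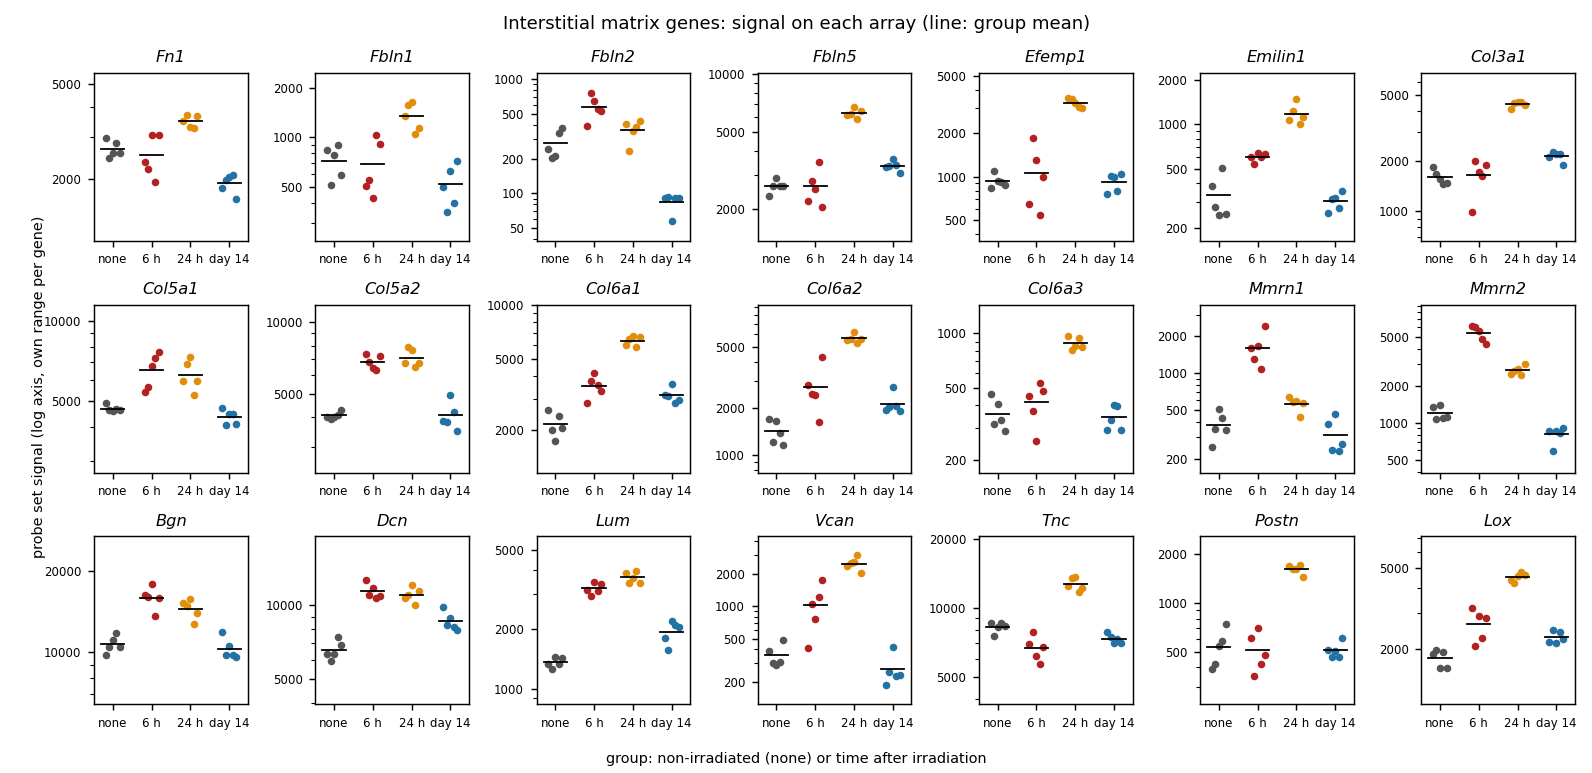
Signal of each of the 21 measured interstitial matrix genes on each of the 20 arrays, on a log axis with its own range for each gene, by group (5 points per group, line at the group mean). In Fbln5, Efemp1, Col3a1 and Postn the 24-hour arrays alone stand above the rest, in Mmrn1 and Mmrn2 the 6-hour arrays stand highest, and in Bgn, Dcn and Col5a2 both early groups are raised to a like level.

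Fibronectin, the adhesive glycoprotein that organises newly laid matrix, changed little. Fn1 read 2958, 2450.4, 2573, 2812 and 2559 in the non-irradiated arrays, 2351, 2190.3, 3059, 1932 and 3045 at 6 hours, 3481, 3711, 3286, 3258 and 3677 at 24 hours and 1826, 1979.9, 2029, 2075 and 1644 at day 14. The 24-hour arrays lay above and the day 14 arrays below all non-irradiated ones, and the 6-hour arrays overlapped them. The rise at 24 hours was 0.38 ± 0.12 (adjusted p = 0.015). Its second, dimmer probe set read 0.02 at 6 hours, -2.08 at 24 hours and -3.60 at day 14, so the direction at 24 hours depends on the probe set. With quantile normalization the change at 24 hours (0.29) was not called.

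Of the 5 measured genes of microfibrils and elastic fibres, 2 rose at 6 hours and 4 at 24 hours. Efemp1, which encodes fibulin-3, read 841, 1088, 930.0, 922 and 877 without irradiation, 643, 1846, 1312, 539.8 and 991 at 6 hours, 3509, 3467, 3256, 3058 and 3017 at 24 hours and 758, 1010.0, 1000.3, 796 and 1039 at day 14. Its 6-hour arrays spread to both sides of the non-irradiated ones, and all 24-hour arrays were higher than any other. It read 0.06 ± 0.22 at 6 hours (adjusted p = 0.893) and rose by 1.81 ± 0.22 at 24 hours (adjusted p = 3.88e-07). Fbln5, the fibulin that brings elastin and its crosslinking enzymes together, read 2352, 2627, 2897, 2622 and 2636 without irradiation, 2195, 2814, 2534, 3502 and 2062 at 6 hours, 6106, 6236, 6751, 5844 and 6393 at 24 hours and 3306, 3332, 3646, 3364 and 3061 at day 14. Here again the 24-hour arrays stood alone, at 2.39-fold over the non-irradiated mean (adjusted p = 1.7e-09), after -0.03 ± 0.11 at 6 hours. Fbln1 followed with 512 to 895, 428 to 1040.3 and 1049 to 1651 in the same 3 groups and a rise of 0.91 ± 0.25 at 24 hours (adjusted p = 0.00537). The other probe sets of Fbln1, both above background on all 20 arrays, read 0.69 and -0.28 at 24 hours without a call (adjusted p = 0.0805 and 0.647), and the mean of all 3 gave 0.44, which was not called.

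Emilin1, a glycoprotein at the interface of elastin and microfibrils, climbed in steps. It read 385, 277, 246, 505 and 249 in the non-irradiated arrays, 606, 537, 639.9, 602 and 630.1 at 6 hours, 1064, 1231, 1489, 1009.6 and 1122 at 24 hours and 253, 314, 320.1, 271 and 353 at day 14. The first 3 groups did not overlap, and day 14 lay within the non-irradiated range. It rose 1.89-fold and then 3.67-fold (adjusted p = 0.000986 and 4.73e-08). Fbln2, a fibulin found in vessel walls and basement membranes, was the exception of the group. Its signals were 247, 204, 214, 339 and 376 without irradiation, 390.2, 759, 649, 546 and 526 at 6 hours, 402, 234, 355, 385 and 427 at 24 hours and 92.1, 93.0, 57.7, 90.3 and 91.6 at day 14. The 6-hour arrays were all above the non-irradiated ones, the 24-hour arrays overlapped them and the day 14 arrays were all below. Fbln2 rose by 1.06 ± 0.26 at 6 hours (adjusted p = 0.00286) and read 0.40 ± 0.26 at 24 hours (adjusted p = 0.282). Its dim second probe set, above background on 5 of the 20 arrays, read -1.42 at 6 hours, and the mean of both probe sets gave -0.18.

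Collagen III is the flexible fibre of vessels and reticular tissue, and collagen V starts and thins collagen fibrils. By their brightest probe sets both collagen V genes rose at 6 hours and Col3a1 did not. Col3a1 read 1861, 1675, 1556, 1455 and 1487 in the non-irradiated arrays, 998, 2000.4, 1713, 1641 and 1894 at 6 hours, 4109, 4498, 4546, 4522 and 4365 at 24 hours and 2119, 2269, 2207, 2219 and 1891 at day 14. The 6-hour arrays straddled the non-irradiated ones and the 24-hour arrays were all higher than any other array of the gene. The change was 0.00 ± 0.14 at 6 hours (adjusted p = 0.991) and 1.46 ± 0.14 at 24 hours (adjusted p = 5.56e-09). Col5a2, its neighbour on the chromosome, had instead 4034, 3958, 4008, 4114 and 4307 without irradiation, 7400.1, 6859, 6414, 6302 and 7230.3 at 6 hours, 6731, 7914, 7671, 6528 and 6772 at 24 hours and 3869, 3846, 4962, 4211 and 3528 at day 14. Both early groups lay above the non-irradiated arrays and overlapped each other. It rose by 0.74 ± 0.087 and 0.80 ± 0.087 (adjusted p = 2.56e-07 and 5.9e-08). Col5a1, the partner chain, rose by 0.47 ± 0.097 and 0.41 ± 0.097 (adjusted p = 0.000578 and 0.00187), with 4585 to 4909.9 without irradiation, 5426 to 7651 at 6 hours and 5279 to 7303 at 24 hours. The probe sets of Col5a1 disagreed on its timing. The second read 0.54 and 0.72, while the third, above background on all 20 arrays, read 0.03 at 6 hours (adjusted p = 0.937) and 1.15 at 24 hours, with a step of 1.12 between them (adjusted p = 1.68e-05), as in Col3a1.

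Collagen VI forms beaded microfibrils close to basement membranes from α1, α2 and α3 chains. Col6a2 read 1701, 1206, 1663, 1379 and 1153 in the non-irradiated arrays, 2840.1, 2468, 2428, 1633 and 4321 at 6 hours, 5562, 5583, 6240.3, 5299.8 and 5635 at 24 hours and 1952, 2032, 2744, 2073 and 1919 at day 14. The fourth 6-hour replicate lay among the non-irradiated ones, while the 24-hour arrays were all higher than any other. Col6a2 rose 1.86-fold and then 4.03-fold (adjusted p = 0.000246 and 9.66e-10). Col6a1, which lies next to it, read 2587, 2023, 1749, 2408 and 2053 without irradiation, 2843, 3786, 4158, 3599.8 and 3316 at 6 hours, 5954, 6439, 6676, 5832 and 6649.8 at 24 hours and 3136, 3097, 3641, 2841 and 2939 at day 14. These groups did not overlap up to 24 hours, and the rises were 1.64-fold and 2.94-fold (adjusted p = 1.83e-05 and 3.52e-11). Col6a3, the longest of the 3 chains, read 0.19 ± 0.21 at 6 hours (adjusted p = 0.57) and rose by 1.30 ± 0.21 at 24 hours (adjusted p = 2e-05). Its arrays spanned 287 to 460.3, 255 to 532 and 811 to 960.1 in these groups.

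The multimerins had the largest 6-hour changes of the list. Mmrn2, a glycoprotein that endothelial cells lay down around vessels, read 1352, 1068, 1391, 1089 and 1105 without irradiation, 6135, 5985, 5654, 4794 and 4428 at 6 hours, 2518, 2625, 2730.1, 2469 and 3009.7 at 24 hours and 865, 589, 865, 822 and 912 at day 14. No pair of the 4 groups overlapped. Mmrn2 rose 4.49-fold at 6 hours (2.17 ± 0.13, adjusted p = 2.33e-12) and 2.23-fold at 24 hours (adjusted p = 1.24e-07). Mmrn1, a factor V-binding protein stored in platelets and endothelial cells, read 250.2, 353, 509, 431 and 345 without irradiation, 1611, 1308, 1670.3, 1091 and 2422 at 6 hours, 636, 583, 594, 438 and 574 at 24 hours and 382, 236, 464, 232 and 264 at day 14. The 6-hour arrays were all above every other array of the gene. Mmrn1 rose 4.24-fold at 6 hours (adjusted p = 1.65e-07) and read 0.61 ± 0.24 at 24 hours (adjusted p = 0.0559). The 24-hour value passed the threshold when arrays were centred (0.99) or quantile normalized (0.77), in 3 other settings, and without any of 5 arrays in turn, among them the non-irradiated replicate 3 (0.73) and the 24-hour replicate 4 (0.70). Megakaryocyte markers moved in the same arrays. The summed signal of the 6 measured of 7 listed markers spanned 10314 to 11467 without irradiation, 26794 to 35406 at 6 hours, 14871 to 16271 at 24 hours and 8507 to 9801 at day 14. None of them was at 0 on any array or at background on all arrays of a group. Their part in the change of Mmrn1 was not tested.

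Among the proteoglycans the largest change of the whole list was that of Vcan, which encodes versican, the large hyaluronan-binding proteoglycan of provisional matrix. Vcan read 386, 297, 289, 306 and 491 in the non-irradiated arrays, 415, 1042, 763, 1220.0 and 1754 at 6 hours, 2372, 2517, 2558, 2948 and 2012 at 24 hours and 186, 249, 424, 229 and 234 at day 14. The first replicate of 6 hours lay among the non-irradiated arrays and the other 4 above them, and the 24-hour arrays were all higher still. Versican rose 2.69-fold at 6 hours (adjusted p = 0.000278) and 7.10-fold at 24 hours (adjusted p = 1.12e-08). Its 3 other probe sets that were above background on all 20 arrays read 2.57 to 3.79 at 24 hours on the log2 scale.

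The small leucine-rich proteoglycans biglycan, decorin and lumican, which coat collagen fibrils, rose to a plateau. Lum read 1336, 1256, 1451, 1335 and 1432 without irradiation, 3158, 2946, 3473, 3113 and 3400.1 at 6 hours, 3853, 3440.5, 3633, 3914 and 3413 at 24 hours and 1799, 1574, 2204, 2114 and 2054 at day 14. Both early groups lay far above the non-irradiated arrays and the day 14 group between them. Lumican rose by 1.24 ± 0.10 and 1.42 ± 0.10 (adjusted p = 6.85e-10 and 3.92e-11). Dcn, its neighbour on the chromosome, went from 6580.2 ± 576 to 11389.6 ± 839.8 at 6 hours and 11034 ± 805 at 24 hours (0.79 ± 0.076 and 0.75 ± 0.076). Bgn went from 10712 ± 786 to 15933 ± 1526 and 14501 ± 1192 (0.57 ± 0.077 and 0.44 ± 0.077). For none of the 3 was a difference called between 24 and 6 hours (adjusted p = 0.213, 0.713 and 0.221 in this order). Quantile normalization reversed the 24-hour against 6-hour direction of Dcn and Bgn (0.24 and 0.25, both then called). A probe set of Bgn open to cross-hybridization read 1.06 at 6 hours and 1.91 at 24 hours.

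The matricellular proteins tenascin C and periostin, which modulate how cells hold on to matrix, changed at 24 hours. Postn read 391, 417, 544, 579 and 743 in the non-irradiated arrays, 605, 353, 704, 422 and 479 at 6 hours, 1696, 1619.8, 1630.2, 1723 and 1442 at 24 hours and 514, 459.6, 507, 463 and 608 at day 14. Only the 24-hour arrays left the non-irradiated range in full, at 3.11-fold (adjusted p = 2.81e-07), after -0.07 ± 0.20 at 6 hours. Tnc read 8629, 7543, 8265, 8562 and 8312 without irradiation, 6977, 7835, 6139, 5678 and 6775 at 6 hours, 12461, 13521, 13679, 11675 and 12270.2 at 24 hours and 7811, 7445, 7002, 7283 and 6999.9 at day 14. It was the gene that fell at 6 hours as deposited (-0.31 ± 0.076, adjusted p = 0.00255), though not with arrays centred on their medians (-0.06), and it rose 1.54-fold at 24 hours (adjusted p = 4.24e-07). Its second probe set read 0.32 and 1.09 at these times. Lox, the copper enzyme that crosslinks collagen and elastin, rose in steps from 1904, 1971, 1612, 1946 and 1611 to 3176, 2084, 2912, 2269 and 2843 at 6 hours and 4372, 4214, 4579.9, 4746 and 4609 at 24 hours. The 3 groups did not overlap, and the rises were 1.46-fold and 2.50-fold (adjusted p = 0.000474 and 7.06e-10).

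**Figure D3:**
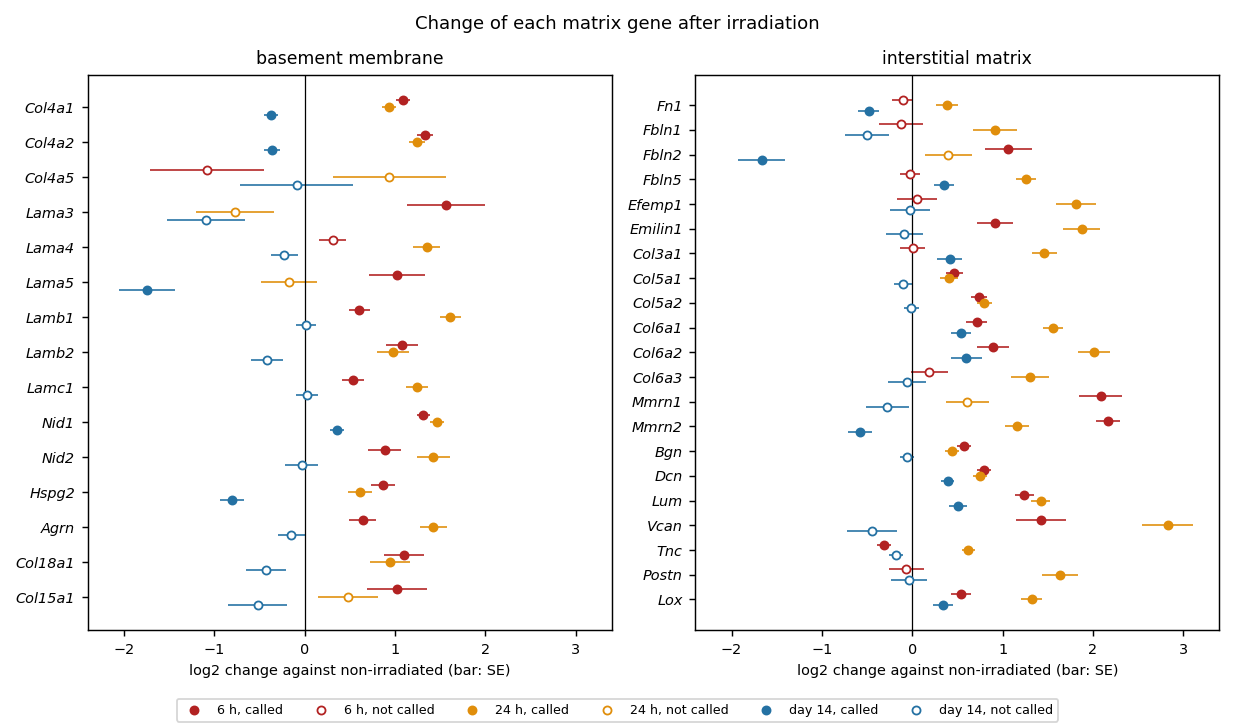
Fitted log2 change of each measured matrix gene against the non-irradiated group at 6 hours, 24 hours and day 14 (bars: SE; filled points: adjusted p under 0.05), basement membrane on the left and interstitial matrix on the right. Early changes lie to the right of 0 for most genes, up to 2.83 for Vcan at 24 hours. As deposited, day 14 values have a median of -0.36 for the basement membrane genes and -0.06 for the interstitial genes.

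The time courses can be counted. Of the basement membrane genes 10 rose at both early times, 3 at 6 hours alone (Lama3, Lama5 and Col15a1) and 1 at 24 hours alone (Lama4). Of the interstitial genes 11 rose at both, 8 at 24 hours alone (Fn1, Fbln1, Fbln5, Efemp1, Col3a1, Col6a3, Tnc and Postn) and 2 at 6 hours alone (Fbln2 and Mmrn1). A call at one time and not at the other does not show a difference, so 24 hours was compared with 6 hours directly.

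From 6 to 24 hours 13 interstitial genes rose further and 2 fell, and 6 basement membrane genes rose and 2 fell. Over all genes 13.7% were called higher and 10.1% lower in this comparison. The median log2 change was 0.84 for the interstitial genes and -0.09 for the basement membrane genes, against -0.05 for all genes. All 8 interstitial genes that rose at 24 hours alone were among the 13. The largest steps were those of Efemp1 (1.75 ± 0.22, adjusted p = 1.36e-06), Postn (1.70 ± 0.20, adjusted p = 3.17e-07), Col3a1 (1.46 ± 0.14, adjusted p = 1.55e-08) and Vcan (1.40 ± 0.28, adjusted p = 0.0005). In the basement membrane Lama4, Lamb1, Lamc1, Agrn and Nid2 rose, by 1.04, 1.01, 0.70, 0.78 and 0.54. The call of Nid2 (adjusted p = 0.0347) was lost without any of the 6-hour replicates 2, 3 and 5 or the 24-hour replicates 1, 2, 4 and 5, and in a fit of the 2 groups alone. The sixth is Col4a5, whose 6-hour arrays were all at background. The falls were those of Lama3 (-2.34 ± 0.43), Lama5 (-1.20 ± 0.31), Mmrn1 (-1.48 ± 0.24) and Mmrn2 (-1.01 ± 0.13).

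**Figure D4:**
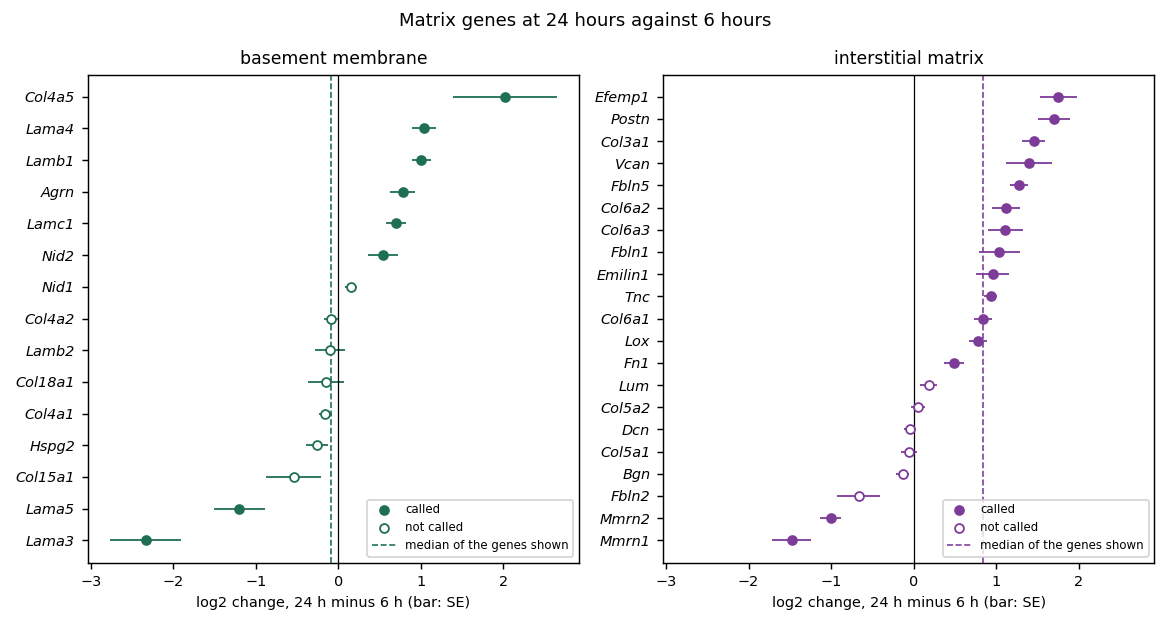
Fitted log2 change of each measured matrix gene from 6 to 24 hours (bars: SE; filled points: adjusted p under 0.05; dashed line: median of the genes shown), sorted within each class. The interstitial median lies at 0.84 and the basement membrane median at -0.09, and Col4a5, with all 6-hour arrays at background, has no interpretable size.

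By day 14 most of the genes had fallen from their 24-hour level. Against 24 hours 13 of the 15 basement membrane genes and all 21 interstitial genes fell and 0 rose, while 21.7% of all genes were called lower and 15.2% higher. The medians were -1.39 and -1.01, against -0.27 for all genes. With arrays centred on their medians 12 and 14 fell and 0 rose, while 1687 of all 18193 genes were called lower and 4972 higher. The deepest fall was that of Vcan (-3.27 ± 0.28, adjusted p = 6.76e-10), followed by Fbln2 (-2.06 ± 0.26), Emilin1 (-1.96 ± 0.20) and Efemp1 (-1.83 ± 0.22). Against 6 hours 14 basement membrane genes fell and 0 rose, and 11 interstitial genes fell and 2 rose, with 25.0% of all genes called lower and 19.8% higher. Mmrn2 (-2.74 ± 0.13), Lama5 (-2.77 ± 0.31) and Fbln2 (-2.73 ± 0.26) had the deepest of these falls. The 2 that rose, Fbln5 and Col3a1 (0.37 and 0.41), lost the call with quantile normalization. Centring turned this comparison for the interstitial genes to 6 higher and 4 lower, and left 9 basement membrane genes lower with 1 higher. Over all 18193 genes it called 6652 higher and 1755 lower.

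Against the non-irradiated group the sign at day 14 depended on how arrays were scaled. As deposited 1 basement membrane gene was higher and 4 lower, and 7 interstitial genes were higher and 3 lower. With arrays centred on their medians the counts were 9 higher and 1 lower, and 17 higher and 1 lower. With quantile normalization they were 0 and 4, and 3 and 6. Over all 18193 genes the calls were 1723 higher and 2359 lower as deposited, 8212 and 461 centred, and 1786 and 1139 quantile normalized. Of the 36 genes 21 lay above the median change of all genes as deposited or centred, and 10 did with quantile normalization. Lama5 was lower under all 3 scalings, at -1.74 ± 0.31 as deposited (adjusted p = 0.00022), -0.85 centred and -1.09 quantile normalized. Fbln2 was lower too, at -1.67 ± 0.26 (adjusted p = 5.35e-05), -0.77 and -0.82. Dcn (0.39 ± 0.076, 1.29 and 0.31), Lum (0.51 ± 0.10, 1.41 and 0.35) and Col6a1 (0.54 ± 0.11, 1.44 and 0.33) were higher under all 3. With the mean of its probe sets, however, Dcn was no longer higher at day 14. Col4a1, Col4a2, Hspg2, Mmrn2 and Fn1 fell as deposited, at -0.37, -0.36, -0.80, -0.57 and -0.48, and read 0.53, 0.54, 0.10, 0.32 and 0.41 when centred. Nid1, Col6a2, Fbln5, Col3a1 and Lox rose as deposited by 0.36, 0.60, 0.35, 0.42 and 0.34, and with quantile normalization none of these 5 was called. Without day 14 replicate 3 or 4 the count of 7 interstitial genes went down to 4. Col3a1 lost its call without any of the non-irradiated replicates 3, 4 and 5 or the day 14 replicates 1 to 4, Lox without non-irradiated replicate 3 or 5 or day 14 replicate 2 or 4, Fbln5 without non-irradiated replicate 1 or day 14 replicate 3 or 4, and Col6a2 without day 14 replicate 3.

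Other genes of the matrix came from lists chosen by function, also with earlier results known. They were counted beside the same shares of all genes, 12.9% called higher and 14.5% lower at 6 hours and 15.7% and 13.8% at 24 hours. Of each list 0 to 2 genes fell, and nothing is read from so few. Of 12 enzymes that modify, assemble or crosslink collagen, 7 rose at 6 hours and all 12 at 24 hours, and 0 fell. The lysyl hydroxylase gene Plod3 rose by 2.10 ± 0.18 at 24 hours (adjusted p = 6.34e-10), Loxl3 by 1.72 ± 0.12, Loxl1 by 1.71 ± 0.16 and the prolyl hydroxylase gene P4ha2 by 1.67 ± 0.27. Of 8 further fibrillar and associated collagens 4 rose and 1 fell at 6 hours, and 4 rose and 2 fell at 24 hours. Col12a1, a collagen that decorates fibrils, rose by 2.29 ± 0.20 at 24 hours, while Col1a1 and Col1a2, the chains of collagen I and 2 of the stromal markers given below, fell by 0.38 and 0.25. With arrays centred on their medians, which adds 0.38 at this time, neither reads as a fall. Of 9 further elastic fibre genes 5 rose and 1 fell at 6 hours, and 5 rose and 0 fell at 24 hours. Elastin itself, Eln, rose by 1.15 ± 0.27 at 6 hours and read -0.34 ± 0.27 at 24 hours, and the microfibril gene Mfap2 read 0.00 ± 0.34 and then rose by 1.80 ± 0.34. Of 9 further proteoglycan and matricellular genes 2 rose and 1 fell at 6 hours, and 6 rose and 1 fell at 24 hours, with Fmod at 1.72 ± 0.51, Prelp at 1.69 ± 0.10 and Ogn at 1.67 ± 0.18.

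Basement membrane genes beyond the 15 were counted as well. Of 18 listed genes 17 were measured, of which 4 rose and 2 fell at 6 hours (12.9% and 14.5% of all genes) and 2 rose and 1 fell at 24 hours (15.7% and 13.8% of all genes). The 24-hour counts are no higher than the share over all genes, and the falls at 6 hours are near it. Tinagl1, a matrix protein of vessel walls, rose by 1.69 ± 0.19 at 6 hours, and Pxdn, the peroxidase that crosslinks collagen IV, by 1.18 ± 0.23. Egfl7, a factor that endothelial cells secrete and 1 of the 12 endothelial markers used here, rose by 0.99 ± 0.11 at 6 hours and read -0.02 ± 0.11 at 24 hours. Lama1, the α chain of embryonic laminin, read 0.31 ± 0.39 at 6 hours and rose by 1.53 ± 0.39 at 24 hours. Ntn4, a laminin-related netrin, fell at both times (-1.35 ± 0.24 and -0.87 ± 0.24).

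Markers of cell types moved in the same arrays as the matrix genes. The 12 endothelial markers had a summed signal of 14535 to 16014 without irradiation, 40426 to 47019 at 6 hours, 22231 to 23649 at 24 hours and 8065 to 9120 at day 14. Of these markers 11 rose at 6 hours, 6 rose at 24 hours, and at day 14 1 rose and 8 fell (12.9%, 15.7%, 9.47% and 13.0% of all genes). The sums were highest at 6 hours and lowest at day 14, with no overlap between groups. The 8 smooth muscle and pericyte markers summed to 2071 to 2557, 6002 to 6911, 12385 to 13754 and 1763 to 2251 in the same order of groups, with Cnn1 at background in all groups but that of 24 hours. Of these 8 markers 5 rose and 1 fell at 6 hours, 5 rose and 0 fell at 24 hours, and 2 rose and 1 fell at day 14. Of all genes 12.9%, 15.7% and 9.47% were called higher at these times, and 14.5%, 13.8% and 13.0% lower. The markers did not move as a block, with log2 changes of -1.38 to 2.63 at day 14. Acta2, smooth muscle actin, rose by 5.36 ± 0.28 at 24 hours.

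The 9 marrow stromal and fibroblast markers summed to 79582 to 89730 without irradiation, 90411 to 112783 at 6 hours, 68082 to 87133 at 24 hours and 60821 to 73930 at day 14. Sums weight the brightest markers. The mean log2 signal of the 9 ranked the groups otherwise, at 11.34 to 11.49, 10.96 to 11.37, 11.68 to 11.84 and 11.30 to 11.53. Of these markers 3 rose and 2 fell at 6 hours, and 3 rose and 3 fell at 24 hours, where 12.9% and 14.5% of all genes, then 15.7% and 13.8%, were called higher and lower. The 3 measured of 5 osteoblast markers summed to 14226 to 17732, 21060 to 23973, 21756 to 25619 and 12091 to 15787. The 5 measured of 7 erythroid markers summed to 23815 to 25651 without irradiation, 2148 to 4915 at 6 hours, 658 to 996 at 24 hours, where Rhag was at background, and 29220 to 34868 at day 14. The 7 macrophage markers summed to 3112 to 4118, 2506 to 4669, 3024 to 3594 and 2305 to 2782, with C1qa at background at 6 hours, and the 6 pan-leukocyte markers to 36418 to 41535, 35472 to 43480, 34502 to 39791 and 26793 to 29490. None of the markers was at a signal of 0. For Gapdh the log2 signal at the 3′ end minus that at the 5′ end, a measure of RNA length, was 1.33, 1.58, 0.77 and 0.89 in the 4 groups. By array it spanned 1.27 to 1.36, 1.26 to 2.03, 0.72 to 0.86 and 0.75 to 1.04, the same split as in the hybridization controls. The part of these markers and of RNA length in the changes of the matrix genes was not tested.

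**Figure D5:**
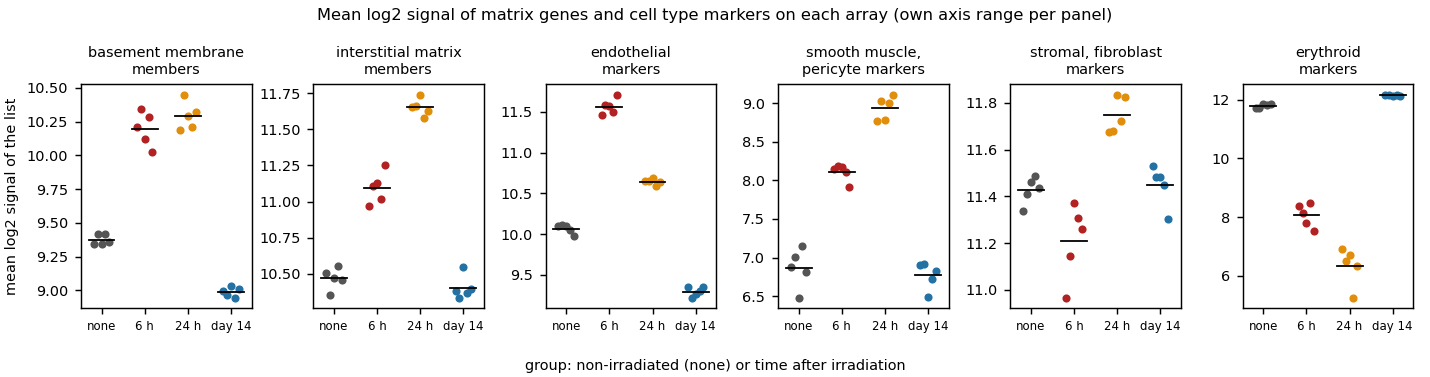
Mean log2 signal of the measured basement membrane genes, the interstitial matrix genes and 4 lists of cell type markers on each of the 20 arrays, by group (line at the group mean, own axis range per panel). The interstitial genes are highest at 24 hours (11.58 to 11.74). So are the smooth muscle and pericyte markers (8.77 to 9.11) and the stromal and fibroblast markers (11.68 to 11.84). The endothelial markers are highest at 6 hours (11.46 to 11.71).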

How the data were processed

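Amplified RNA of bone marrow VE-cadherin+ cells was read on 20 Affymetrix arrays. The authors deposited linear probe set intensities, 1 column per array, and in these values every array has a trimmed mean of 500. Transcriptome Analysis Console and Affymetrix Expression Console are named, without versions, in the submitters' processing notes. How probe sets were summarized and background was corrected is not given in the sources used here. Precision is limited by the number of arrays.

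The platform annotation gave 1 gene symbol for 34945 of 45101 probe sets, several for 932 and none used here for 9160, and 64 were controls. Values were log2 transformed after adding 1, and each gene took its single-symbol probe set with the highest mean, which left 18193 genes. A model of the 4 groups was fitted by limma 3.58.1 under R 4.3.3, using lmFit and then eBayes with the trend option, two-sided, with Benjamini-Hochberg adjustment over all genes and calls at an adjusted p under 0.05. All 6 comparisons between groups were made, and the model was tested on simulated data. An array's background is the 95th percentile of its 27 bacterial probe sets, a level chosen after seeing the data.

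Alternatives were quantile normalization, centring arrays on medians, leaving out genes under the 40th percentile, averaging the probe sets of a gene, dropping those open to cross-hybridization, array weights, adding 16, fits limited to the 2 groups compared, eBayes without the trend, the replicate number as a block and each array left out in turn. The members, marker lists and pathway lists were chosen with earlier results of these data known. Genes named are members called at 1 time or more by role, largest change leading, and from the other lists up to 4 by largest change. RefSeq promoter windows (GRCm38.p6) were matched by symbol. Python 3.11.15 with matplotlib 3.10.9 drew the figures.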

Additional observations from a re-analysis of the deposited data

Results flagged for a closer look

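Some arrays stood apart from the other 4 of their group. Of 144 sets of 5 values 10 had an array whose gap to its neighbour was large for the range of the group by Dixon's test, and chance marks about 1 in 20. The lowest of a group were Col4a2 in 6-hour replicate 4 (6903, next value 9333), Lama5 in 6-hour replicate 3 (403, next 792), Agrn in 24-hour replicate 3 (1561, next 2085), Fbln2 in day 14 replicate 3 (57.7, next 90.3), Col3a1 in 6-hour replicate 1 (998, next 1641), Mmrn1 in 24-hour replicate 4 (438, next 574) and Mmrn2 in day 14 replicate 2 (589, next 822). The highest were Col4a5 in 24-hour replicate 2 (57.3, next 29.9), Hspg2 in non-irradiated replicate 1 (1259, next 1089.9) and Col6a2 in day 14 replicate 3 (2744, next 2073). Among these, the change of Col6a2 at day 14 (0.60) lost its call without the array, at 0.51, and that of Mmrn1 at 24 hours (0.61) gained one, at 0.70.

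Irradiated groups differed from each other by the direct test. Levels differed in 8 basement membrane and 15 interstitial genes between 24 and 6 hours, in 13 and 21 between day 14 and 24 hours, and in 14 and 13 between day 14 and 6 hours. Of all genes 13.7% were called higher and 10.1% lower in the first comparison. The shares were 15.2% and 21.7% in the second, and 19.8% and 25.0% in the third.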

How the results depend on the processing

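Counts of genes called higher at 6 and 24 hours moved little under quantile normalization, array weights, an added 16 instead of 1, fits of the 2 groups compared, eBayes without the trend and every left-out array, with 12 to 13 and 11 basement membrane genes and 13 and 19 to 20 interstitial genes. Of the genes called, 17 of 27 at 6 hours, 26 of 30 at 24 hours and 4 of 15 at day 14 kept their call under all 30 settings. The replicate number as a block changed none of the 24 class counts (13 and 11 basement membrane genes and 13 and 19 interstitial genes higher at 6 and 24 hours). The arrays of a number were correlated at -0.07 to 0.05 after removing group means. Between 24 and 6 hours the correlations were 0.003 to 0.049, and for 3 numbers the array of the same number correlated best. Correlations this low give little sign of pairing but cannot exclude a batch shared by a number.

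Centring arrays on their medians gave 0 interstitial genes lower at 6 hours. It gave 9 higher and 1 lower basement membrane genes and 17 higher and 1 lower interstitial genes at day 14, and 1 higher and 9 lower, and 6 higher and 4 lower, for day 14 against 6 hours. Over all 18193 genes it called 8212 higher and 461 lower at day 14, and 6652 and 1755 for day 14 against 6 hours. It reversed these log2 changes at day 14: Col4a1 0.53, Col4a2 0.54, Lama4 0.68, Lamb2 0.48, Nid2 0.87, Hspg2 0.10, Agrn 0.75, Fn1 0.41, Efemp1 0.88, Emilin1 0.81, Col5a1 0.80, Col5a2 0.89, Col6a3 0.84, Mmrn1 0.62, Mmrn2 0.32, Bgn 0.84, Tnc 0.72 and Postn 0.86. Against 24 hours it reversed Col5a1 0.0042, Bgn 0.026 and Dcn 0.16, and against 6 hours Lama4 0.11, Lamb1 0.059, Lamc1 0.14, Fn1 0.27, Col5a1 0.081, Col6a1 0.48, Bgn 0.024, Dcn 0.25 and Lox 0.45. Quantile normalization gave 0 basement membrane genes higher and 3 interstitial genes higher and 6 lower at day 14, 1 basement membrane and 0 interstitial genes higher for day 14 against 6 hours, and reversed Bgn 0.25 and Dcn 0.24 at 24 against 6 hours. Over all genes it called 1786 higher and 1139 lower at day 14, and 4026 and 2879 for day 14 against 6 hours. Both scalings also moved the median change of all genes, at day 14 from -0.18 to 0.72 centred and 0.19 quantile normalized. Quantile normalization did not move every gene in that direction, and Col4a1 went from -0.37 to -0.58 at day 14. What part the median had in the shifts under quantile normalization was not tested.

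Averaging the probe sets of a gene, 0 interstitial genes were lower at 6 hours, 1 was lower at 24 hours, and at day 14 0 basement membrane and 4 interstitial genes were higher and 6 interstitial genes lower, with 0 higher against 6 hours. It reversed Fbln2 -0.18 and Tnc 0.00085 at 6 hours, Fn1 -0.85 at 24 hours, Lamb1 -0.44, Nid1 -0.49, Bgn 0.25 and Dcn -0.089 at day 14, Fn1 -0.80, Col5a1 0.41 and Bgn 0.30 at 24 against 6 hours, and Fbln5 -0.14 and Tnc -1.35 at day 14 against 6 hours. The cause was not tested. Array weights gave 5 interstitial genes lower at day 14, eBayes without the trend gave 4 higher, and a fit of the 2 groups alone gave 0 higher at day 14 against 6 hours. Leaving out dim genes gave 1 basement membrane gene lower at 24 against 6 hours, where Lama3 was no longer tested. Leaving out each array in turn gave 2 to 4 basement membrane genes lower at 24 against 6 hours, with 4 without 6-hour replicate 4. It gave 4 to 7 interstitial genes higher at day 14, and 1 to 3 higher at day 14 against 6 hours, with 1 without 6-hour replicate 1. Signal near background limits Col4a5 and Lama3.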

Other observations

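Some genes outside the 36 fell at 6 hours and not at 24 hours. Among the matrix genes of the wider lists, those with the largest falls at 6 hours were Mfap5, a microfibril glycoprotein of elastic tissue, Col14a1, a collagen that binds to fibrils, Aspn, a small leucine-rich proteoglycan, and Smoc1, a calcium-binding protein of basement membranes. Mfap5 went from 240.0 ± 24.5 to 112 ± 85.8 at 6 hours and 565 ± 147 at 24 hours, a fall of 2.05 on the log2 scale (adjusted p = 0.0331) and then a rise of 3.24 ± 0.71 (adjusted p = 0.00137). Its 6-hour SD was large beside its mean, and the array backgrounds at 6 hours were 31.8 to 51.5. The sizes of this fall and rise are therefore uncertain. Col14a1 read close to background at 6 hours and is not described further. Smoc1 went from 428 ± 73.7 to 159.7 ± 50.1 and 891 ± 76.5, and at 24 hours stood 1.07 ± 0.20 above the non-irradiated group (adjusted p = 0.000157). Dpt, which encodes dermatopontin, a collagen-binding protein and 1 of the 9 stromal markers, took the same course, at -1.73 ± 0.23 and 0.99 ± 0.23. Aspn stayed lower at every time (-1.57 ± 0.35, -1.24 ± 0.35 and -1.18 ± 0.35 as deposited).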
